A study of Solanum lycopersicum and Arabidopsis thaliana and Cannabis sativa with 28 samples.

Results

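The domains described here were 1439 narrow stretches of H3K4me3-marked chromatin that lay thinly scattered along the interiors of the tomato chromosomes. They were taken from the 18758 H3K4me3 domains listed for tomato and made up 7.67% of them. A listed domain was kept when its H3K4me3 reads were at least 1.2 times its IgG reads, when its end minus its start was under 3999 bp, and when its midpoint fell in a 1 Mb bin that held the midpoints of fewer than 10 listed domains. Such a bin is called sparse below, and a bin with 10 or more listed domains is called dense. The read ratio, the size and the crowding of the bin therefore chose these domains, and their values are given as a description with no test.

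The series used PHILO ChIP-seq, a chromatin immunoprecipitation method for many small plant samples. For tomato it holds 3 H3K4me3 libraries and 3 libraries made with IgG, a nonspecific antibody that serves as the background control, all from untreated 2-week-old whole seedlings of the Micro-Tom variety. It also holds 3 H3K9ac libraries from untreated Micro-Tom seedlings (ctrl) and 3 from seedlings treated for 2 h (2 h JA). The study's account calls the tomato treatment gaseous JA, for the hormone jasmonic acid, and names methyl jasmonate as the gas used on Arabidopsis. The 3 replicates of each group were merged before domains were called, so every value below comes from a merged library and no spread between replicates can be given. The JA samples are told from ctrl by their titles, since their treatment entry reads none. Fragmentation of the tomato chromatin is given as sonication in the sample records and as MNase digestion in the study's own account, and which was used was not settled here.

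H3K4me3 is a trimethyl mark on lysine 4 of histone H3 that COMPASS-type methyltransferases place on the nucleosomes at the start of transcribed genes. H3K9ac, the acetylation of lysine 9 on the same histone, is laid down by acetyltransferases such as GCN5 and is likewise found around the start and along the front of active genes. Tomato chromosomes carry most of their genes towards the arms, while the broad middle around each centromere is rich in repeats, poor in genes and largely heterochromatic. Jasmonic acid is a wound and defence hormone whose responses run through the transcription factor MYC2. No gene was assigned to a domain, because the gene table at hand was of a different tomato assembly from SLM_r2.0, the one on which the domains were placed.

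Sparse bins were common, although they held few domains. Of the 799 bins of 1 Mb up to the last listed domain of each of the 12 chromosomes, 354 (44.3%) were sparse, 388 were dense and 57 (7.13%) held no listed domain. A dense bin held 33 listed domains at the median and at most 117, whereas a sparse bin held 4 of the domains described here at the median. The sparse bins contained 1611 listed domains in all, of which 1439 (89.3%) passed the limits on ratio and size and came from 350 bins. Among the others, 136 fell short of the ratio, 49 exceeded the size limit and 13 of these failed on both counts. A ratio of at least 1.2 was met by 96.8% of all listed domains. The share that missed it was 8.44% in sparse bins and 2.69% in denser ones, while domains over the size limit made up 3.04% and 6.95%. The 1439 domains covered 2304 kb, 6.06% of the length of all listed domains, and held 6.34% of the H3K4me3 reads and 5.14% of the IgG reads.

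The word interior is used here only for a position between the first and the last dense bin of a chromosome. On their own chromosome, 1424 of the 1439 domains (99.0%) had a dense bin somewhere on both sides. All chromosomes but chromosome 2 had dense bins near both ends, so this share was largely fixed beforehand. It also counts single sparse bins that lie between dense ones. The remaining 15 lay on chromosome 2 between 15 and 19 Mb. The 15 bins before them held no listed domain at all, so no dense bin came before them. The sparse bins joined into 86 unbroken runs with domains, in which empty bins were allowed. Of these runs, 31 spanned at least 5 bins and held 980 of the domains (68.1%), while 28 runs of a single bin held 148. The longest run lay on chromosome 1 from 18 to 45 Mb, where 27 bins held 92 of the domains at 3.93 listed domains per Mb. The next was on chromosome 12 from 12 to 32 Mb, with 57 domains in 20 bins, of which 3 were empty. The run over the first 19 Mb of chromosome 2 held only 15 domains, and its density was 0.947 listed domains per Mb.

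**Figure D1:**
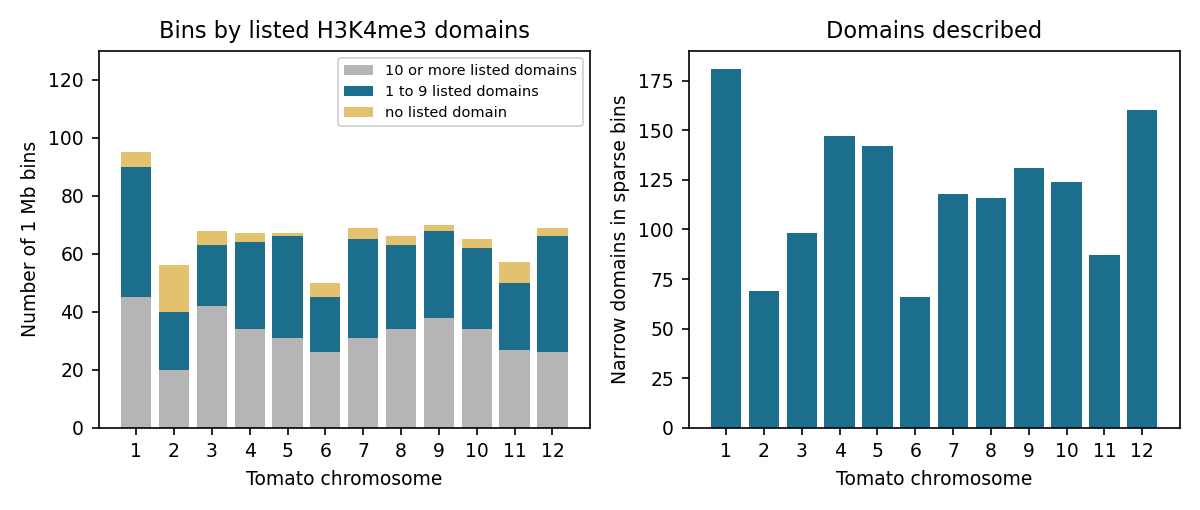
Left, number of 1 Mb bins on each tomato chromosome, split by how many listed H3K4me3 domains they hold. Right, number of narrow domains in sparse bins per chromosome, which ranged from 66 on chromosome 6 to 181 on chromosome 1.

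Every chromosome contributed, in unequal numbers. Chromosome 1 held 181 of the domains and chromosome 12 held 160, the latter being 12.3% of all domains listed there. Chromosome 5 followed with 11.3%. Chromosome 6 had the fewest, 66, which were 3.88% of its list, and chromosome 3 was close with 4.32%. The plot by chromosome shows the contrast between chromosomes 12 and 6, with 40 and 19 sparse bins. Median sizes ran from 1399 to 1599 bp, which are neighbouring values on a size scale with steps of 200 bp. The median log2 ratio of H3K4me3 to IgG reads ran from 2.62 to 3.09 between chromosomes. The share that overlapped a listed H3K9ac domain ran from 75.4% to 93.9%.

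Neighbours were far away. The median distance from one of these domains to the nearest listed H3K4me3 domain was 36200 bp (quartiles 11000 and 115000 bp), against 4800 bp for the 15526 domains in denser bins that met the same limits on ratio and size. The distance exceeded 100 kb for 401 of them (27.9%) and for 0.599% of those in denser bins. Being in a sparse bin did not always mean being alone, since 326 (22.7%) had a neighbour within 10 kb and 75 (5.21%) within 2 kb. Only 33 were the sole listed domain of their bin.

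The most remote domain stood on chromosome 8 from 44630800 to 44632399, 1225200 bp from its nearest neighbour, with 151 H3K4me3 reads over 23 IgG reads. The next, on chromosome 12 from 25808400 to 25809199, had 202 reads over 16 and a distance of 1148600 bp. The last of these 3, on chromosome 2 from 26348200 to 26350199, had 416 reads over 30 at 1132600 bp. Each was alone in its bin, each had several times more H3K4me3 than IgG reads, and each lay under a listed H3K9ac domain.

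The domains were small, with a median size of 1599 bp (quartiles 999 and 1999 bp), where a size is the end minus the start and grows in steps of 200 bp. In denser bins the median was 1799 bp (1199 and 2399 bp). Sizes of at most 999 bp were found in 392 of them (27.2%) and in 17.1% of those in denser bins. At the ends of the range, 3 domains measured 199 bp and 12 measured 3799 bp, while 7 listed domains of 3999 bp in sparse bins were left out by the rule.

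H3K4me3 reads outnumbered IgG reads several times over in a typical domain, as the rule favours. The median was 248 H3K4me3 reads per domain (quartiles 97 and 337, range 21 to 765) over 30 IgG reads (20 and 40). In denser bins the medians were 277 and 32. Per kb of domain the medians were 148 H3K4me3 and 20 IgG reads in sparse bins and 151 and 19 in denser ones. The ratio of H3K4me3 to IgG reads was 7.59 at the median, or 2.92 on the log2 scale (quartiles 2.04 and 3.45), against 3.00 in denser bins. Both libraries enter as raw reads, so the ratio ranks domains within the table and its absolute height depends on the depth of the merged libraries.

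Ratios of at least 4 were reached by 1091 of the domains (75.8%) and ratios of at least 8 by 663 (46.1%), compared with 79.8% and 50.1% in denser bins. The low end held somewhat more of the sparse-bin domains, where 121 (8.41%) had a ratio under 2 against 6.44%. Just inside the limit were a domain on chromosome 11 from 29821600 to 29823399 with 56 reads over 46, at a ratio of 1.22, and a domain on chromosome 1 with 55 over 45. Just outside were domains with 39 reads over 33, at 1.18, and with 85 over 73. A gap did not separate these, and the exact 95% interval of the log2 ratio just inside ran from -0.30 to 0.88. Such intervals cover counting error only, and reads of one PCR product are not independent molecules.

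**Figure D2:**
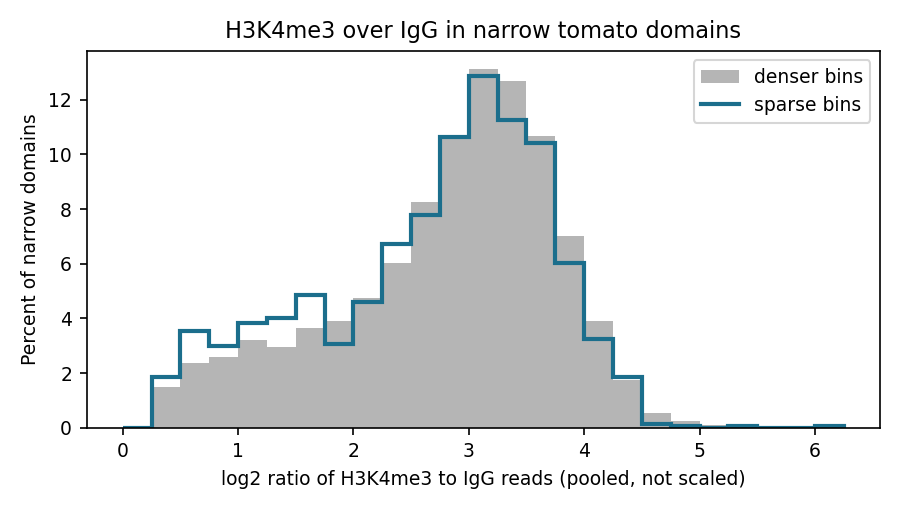
Percent of narrow tomato H3K4me3 domains by log2 ratio of H3K4me3 to IgG reads, in steps of 0.25, for 1439 domains in sparse bins (line) and 15526 in denser bins (filled). Both peak between 3.00 and 3.25, with 12.9% and 13.1% of the domains, and between 0.25 and 1.75 the line lies above the filled area in every step, as it also does in a few steps higher up.

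The strongest domains were short. Among those with at least 100 reads, the highest ratio was found on chromosome 9 from 32510600 to 32511199, with 132 H3K4me3 reads over 3 IgG reads (log2 ratio 5.46, exact 95% interval 3.88 to 7.76). It was followed by a domain on chromosome 11 from 24620400 to 24620999, with 175 reads over 6 (4.87), and one on chromosome 1 from 46021600 to 46022399, with 172 over 7 (4.62). With so few IgG reads the size of these ratios is known only roughly, and 4 of the domains had at most 3 IgG reads. The top of these had no listed H3K9ac domain, while the other 2 did.

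By read density, the leading domain lay on chromosome 6 from 10509200 to 10509999, with 331 H3K4me3 reads over 19 IgG reads, or 414 H3K4me3 reads per kb. A domain on chromosome 7 from 37283800 to 37284599 had 326 over 16 (408 per kb), and one on chromosome 9 from 53785800 to 53787199 had 523 over 29 (374 per kb). All 3 carried a listed H3K9ac domain, and on chromosome 7 the H3K9ac domain had the very same borders.

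A few domains had a high background. The highest IgG density belonged to a 199 bp domain on chromosome 10 at 17532200, with 21 H3K4me3 reads over 15 IgG reads, or 75 IgG reads per kb. On chromosome 5 from 58064400 to 58066799, 419 H3K4me3 reads stood over 132 IgG reads, and on chromosome 10 from 14754400 to 14756799, 605 stood over 109. Their read ratios of 3.17 and 5.55 were below the median of 7.59, and both lay under H3K9ac domains.

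Size and ratio were linked mainly at the short end. The 230 domains of up to 799 bp had a median log2 ratio of 2.17 and 77.9 H3K4me3 reads per kb. The 488 domains of the next class, up to 1399 bp, had 3.17 and 181 reads per kb, the highest of the size classes. From there the median log2 ratio declined through 3.09 for 410 domains and 2.80 for 226 to 2.62 for the 85 longest. Across all 1439 domains, Spearman's rho of size with log2 ratio was 0.02, and it was -0.15 in denser bins. These points share the same merged libraries, and reads enter the ratio, while the caller's use of reads also sets the size.

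The read ratio was similar at every degree of crowding. The 262 domains in bins with 1 to 3 listed domains had a median log2 ratio of 2.99, the 540 in bins with 4 to 6 had 2.96 and the 637 in bins with 7 to 9 had 2.83. In denser bins the medians ran from 2.94 to 3.03. On either side of the limit on crowding, the 218 domains in bins with 9 listed domains had 2.73 and the 270 in bins with 10 had 2.90. With distance from the dense bins the ratio did not move one way. The median was 2.82 for 625 domains in bins next to a dense bin, 2.94 for 461 that were 2 to 3 bins away, 3.06 for 248 at 4 to 6 bins and 2.81 for 105 that were farther still. Between chromosomes it ranged from 2.62 on chromosome 1 to 3.09 on chromosome 7.

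H3K9ac was not used to choose the domains and gives a separate readout from other libraries. Its table lists 17455 domains called in 2 h JA against ctrl, so it holds no H3K9ac region that the caller did not score higher after JA, and its absence does not show a lack of acetylation. Of the 1439 domains, 1213 overlapped a listed H3K9ac domain by at least 1 bp, which is 84.3% (Wilson 95% interval 82.3 to 86.1%, counting error only). The background over all listed H3K4me3 domains was 83.4%, and in denser bins the share was 84.7% (84.1 to 85.2%). These intervals treat domains as independent, although several can lie under the same H3K9ac domain. They are therefore not used to compare sparse with denser bins. Coverage of at least 50% of the domain was found for 1203 of them (83.6%). Complete coverage was found for 975, or 80.4% of those overlapped, against 86.5% in denser bins.

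The share with H3K9ac was higher among domains with a higher H3K4me3 ratio. It was 70.2% for the 121 domains with a ratio under 2 and 69.2% for the 227 between 2 and 4. It reached 83.9% for the 428 between 4 and 8, 92.1% for the 584 between 8 and 16, and 93.7% for the 79 above. The domains in denser bins gave 67.9, 72.2, 83.8, 90.7 and 91.2% for the same classes, so the gradient was seen on both sides of the limit on crowding. It was higher among longer domains too, from 73.9% at up to 799 bp to 89.4% for the 85 longest domains. In denser bins the same size classes went from 72.1% to 89.3%. A longer domain also has more room for an overlap of 1 bp, and whether this plays a part was not tested.

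The 226 domains without H3K9ac were smaller and held fewer reads. Their medians were 1199 bp, 98.5 H3K4me3 reads and a log2 ratio of 2.12, against 1599 bp, 269 reads and 3.01 for those with H3K9ac. They were not narrow misses, since the nearest listed H3K9ac domain lay 27201 bp away at the median. Only 5 had one within 1 kb, and for 40 it was over 100 kb away. By chromosome, the share with H3K9ac ranged from 75.4% on chromosome 2, with 69 domains, to 93.9% on chromosome 3, with 98. By distance to the nearest dense bin, the share was 85.1% at 1 bin, 83.3% at 2 to 3 bins and 87.1% at 4 to 6 bins. Among the 105 domains farther still it was 77.1% (68.2 to 84.1%), so there was no steady trend with distance.

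**Figure D3:**
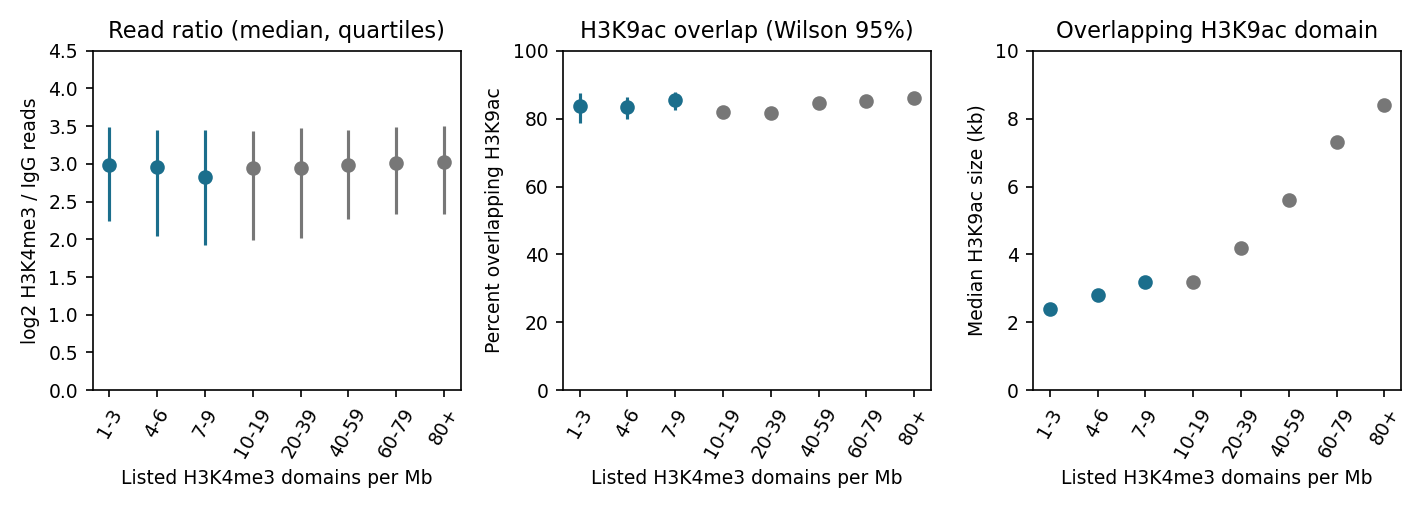
Narrow H3K4me3 domains grouped by the number of listed domains in their 1 Mb bin (blue, sparse bins; grey, denser bins). Left, median log2 read ratio with quartiles, middle, percent that overlap a listed H3K9ac domain with Wilson 95% intervals, right, median size in kb of the overlapping H3K9ac domain. The left and middle panels are nearly level, and the right one climbs from 2399 to 8399 bp. The right panel enters an H3K9ac domain once for each narrow H3K4me3 domain under it.

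The listed H3K9ac domains, called in 2 h JA against ctrl, were shorter over the domains in sparse bins than over those in denser bins. The 1166 distinct H3K9ac domains over the domains in sparse bins had a median size of 2799 bp (quartiles 1799 and 4599 bp, maximum 18199 bp). The 10317 over those in denser bins measured 4799 bp (2599 and 8799 bp, maximum 57199 bp). Counted per H3K4me3 domain, the median size of the overlapping H3K9ac domain was larger in more crowded bins. It went from 2399 bp in bins with 1 to 3 listed domains to 3199 bp at 7 to 9, 4199 bp at 20 to 39 and 8399 bp at 80 or more. This way of counting enters an H3K9ac domain once for each narrow H3K4me3 domain under it, which gives long ones more weight. No test was made of this difference, because each table is a single merged contrast.

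The H3K9ac domains also differed in how many H3K4me3 domains they spanned. Of the 1166 over sparse-bin domains, 1118 (95.9%) covered a single listed H3K4me3 domain, 44 covered 2 and 4 covered 3. In denser bins the single share was 77.3%, and one H3K9ac domain covered as many as 10. When only H3K9ac domains over a single H3K4me3 domain were kept, the medians were 2599 bp in sparse and 3599 bp in denser bins, with a median H3K4me3 size of 1599 bp in both.

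The overhang could also be read per domain. The H3K9ac borders come from the call of 2 h JA against ctrl, and the H3K4me3 borders from untreated seedlings. The H3K9ac domain was longer than the H3K4me3 domain beneath it by 1200 bp at the median in sparse bins (quartiles 200 and 3000 bp) and by 4400 bp in denser bins. With single H3K4me3 domains only, these values were 1000 and 1800 bp. With the sides of each domain sorted by overhang, the longer one measured 1000 bp at the median and the shorter one 0 bp in sparse bins, and 3600 and 400 bp in denser bins. The sorting itself puts the longer side above the shorter.

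**Figure D4:**
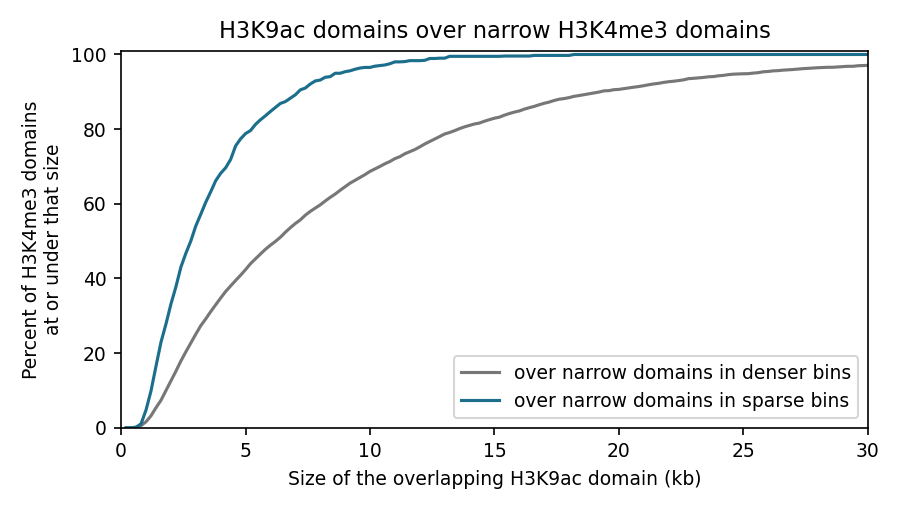
Cumulative percent of narrow H3K4me3 domains whose overlapping H3K9ac domain is at or under the size on the x axis (kb), for sparse bins (blue, 1213 domains) and denser bins (grey, 13144 domains). At 3999 bp the blue line has reached 68.2% and the grey line 34.8%. An H3K9ac domain enters once for each narrow H3K4me3 domain under it.

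Within the listed H3K9ac domains, ctrl reads per kb were not lower over the sparse-bin domains. The median was 124 ctrl H3K9ac reads per kb of H3K9ac domain in sparse bins and 107 in denser bins. These H3K9ac domains had median sizes of 2799 and 4799 bp, so the densities are averages over different lengths. Over the 1213 overlapped domains, H3K4me3 reads per kb and ctrl H3K9ac reads per kb ranked alike with a Spearman's rho of 0.58, compared with 0.39 over 13144 domains in denser bins. The points share the merged libraries and the mappability of each region, and neighbours under the same H3K9ac domain share a value.

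After 2 h JA the H3K9ac reads over these domains were, for the most part, close to those of ctrl. The median over the 1166 H3K9ac domains was 377 reads in 2 h JA and 353 in ctrl. On raw reads, the log2 ratio between the treatments had a median of 0.08 (quartiles 0.01 and 0.16, range -0.16 to 3.42), against 0.06 over the domains in denser bins and 0.08 over all listed H3K9ac domains. Fewer reads in 2 h JA than in ctrl were found for 237 of them (20.3%). That count depends on the scaling, since it was 20 (1.72%) when reads were scaled by the totals of uniquely aligned reads, an alternative chosen after seeing the data. In denser bins the shares were 29.8% and 3.97%. Every listed H3K9ac domain had been scored higher after JA by the caller, with a lowest log2 fold change of 0.05. Domains with a loss on the caller's scale were thus left out beforehand, so the median and these shares do not measure the response to JA. A raw ratio of at least 1.5 was reached by 13 (1.11%), against 2.65% of all listed H3K9ac domains and 1.45% of those in denser bins.

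A ratio of at least 2 was reached by 5 of the 1166 (0.429%), against a background of 0.676% over all listed H3K9ac domains and 0.494% in denser bins. All 5 are named here, 3 by the rule for named domains and the other 2 after their values were seen. On chromosome 1, H3K9ac from 20057400 to 20058399 had 161 reads in 2 h JA and 15 in ctrl, a log2 ratio of 3.42 (exact 95% interval 2.66 to 4.29). It sat inside an H3K4me3 domain with 241 reads over 39 IgG reads. On chromosome 2, the H3K9ac and H3K4me3 domains shared their borders from 46895200 to 46896199. They held 240 H3K9ac reads after 2 h JA and 32 in ctrl, a log2 ratio of 2.91 (2.37 to 3.49), with 91 H3K4me3 reads over 30. On chromosome 7, H3K9ac from 25855000 to 25856999 had 192 reads in 2 h JA and 37 in ctrl, a log2 ratio of 2.38 (1.86 to 2.92), over an H3K4me3 domain with 145 reads over 22.

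The other 2 had smaller ratios. On chromosome 10 at 14005400 there were 148 reads in 2 h JA and 70 in ctrl (log2 ratio 1.08, 0.66 to 1.51), and on chromosome 12 at 31085600 there were 311 and 146 (1.09, 0.80 to 1.38). Their H3K4me3 domains had 28 reads over 11 and 79 over 30. The 3 with the highest JA ratios had H3K4me3 to IgG read ratios of 6.18, 3.03 and 6.59 in the untreated seedlings, all below the median of 7.59. Across the 1213 overlapped domains, the log2 ratio of H3K4me3 and the JA ratio of H3K9ac were nearly unrelated (Spearman's rho 0.03). Whether these 5 ratios exceed the spread between seedlings was not tested, since replicates were merged.

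**Figure D5:**
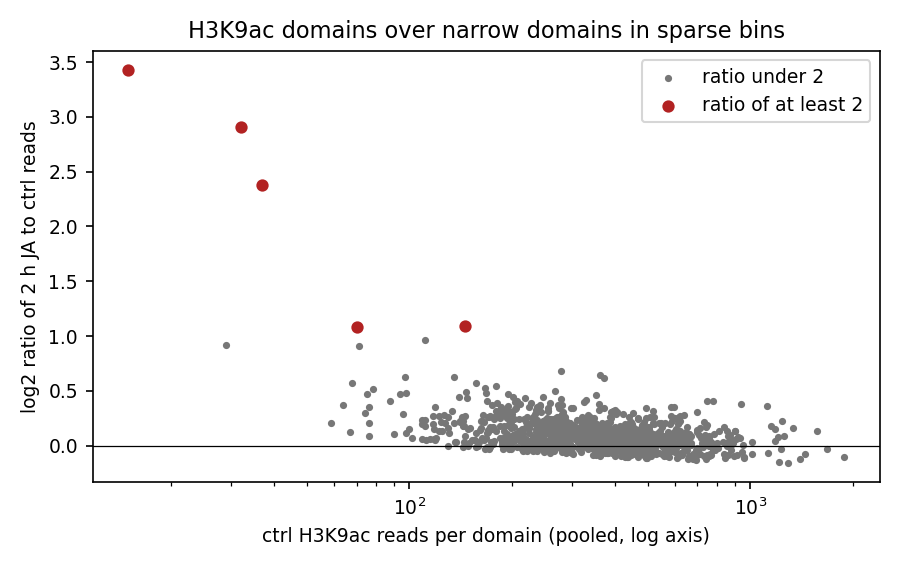
Each point is 1 of the 1166 H3K9ac domains over narrow H3K4me3 domains in sparse bins, with merged ctrl reads on a log axis and the log2 of the JA read ratio on the y axis. The 5 at a ratio of at least 2 are red, and the 3 highest, at 3.42, 2.91 and 2.38, have 15, 32 and 37 ctrl reads.

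The share with H3K9ac parted from that in denser bins under a strict limit on the JA call. When only H3K9ac domains with an FDR of at most 1e-10 in the caller's JA contrast were kept, 8.20% of the sparse-bin domains and 21.1% of those in denser bins still had one. That FDR depends on the number of reads as well as on the ratio, and the ctrl reads per H3K9ac domain differed in the same direction, with medians of 353 and 478. Their part in this difference was not tested.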

How the data were processed

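Reads were aligned by the authors with Bowtie2 (version 2.4.1) to SLM_r2.0 for tomato, the 3 replicates per group were merged, and domains were called with epic2 (listed as SICER 0.0.52 in the submitters' processing notes). Window, gap, duplicate and mapping quality settings are not given in the sources used here. Each deposited table gives raw, unscaled counts of reads for a domain in its treatment and its control library, both merged. Its p-value, FDR, log2 fold change and score were deposited as the authors' caller gave them. These did not enter the rule or the read ratios. FDR served in alternatives, among them the strict limit on the JA call. Log2 fold change served in alternatives and to describe the caller's scale. Every deposited H3K4me3 domain had an FDR of at most 0.05.

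From the counts, log2(H3K4me3/IgG) and log2(2 h JA/ctrl) were computed per domain without a pseudocount (SciPy 1.17.1, NumPy 2.4.6 and pandas 2.3.3 under Python 3.11.15, plots with matplotlib 3.10.9). Listed domains held 5337518 H3K4me3, 893709 IgG, 9443107 2 h JA and 8987855 ctrl reads. Coordinates are as deposited. Shares have Wilson 95% intervals, read ratios exact (Clopper-Pearson) ones, and neither covers biological spread. No test was run, as each table is 1 merged contrast. The scripts were tested on simulated data. Named domains were the 3 highest by read ratio (at least 100 reads), H3K4me3 density, IgG density, isolation and JA ratio (at least 100 reads), the 3 longest runs, and the domains nearest each limit. The members, lists and rules were chosen with earlier results of these data known. Alternatives were other limits on ratio, FDR, size and crowding, other bins, overlap, scaling and a pseudocount. The Arabidopsis libraries were not analysed here.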

Additional observations from a re-analysis of the deposited data

How the results depend on the processing

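Summary values of the sparse-bin domains were recomputed (their number, ratio, size, distance, H3K9ac share and JA ratio). Of these, 41 stayed within the interval of the median or share, or for their number within 1.5 times. Another 13 did not, and none reversed. The lack of reversals says little about stability, since a number, size, distance or share cannot change sign. The limit on read ratio kept the log2 ratios of H3K4me3 to IgG positive on raw reads. The JA ratios came only from H3K9ac domains that the caller had scored higher after JA. The number of domains was 1024 with a size limit of 2 kb and 1802 with 2 Mb bins. The median log2 ratio of H3K4me3 to IgG reads went from 2.92 to 3.00 with a ratio of at least 2, to 2.98 with an FDR of at most 1e-10, and to 2.26 when reads were scaled by the totals of uniquely aligned reads. That scaling shifts every domain by -0.67, and denser bins then had 2.33. The caller's own log2 fold change lies 0.74 above the raw log2 ratio, so these scalings move the ratio in opposite directions. It took the median JA ratio of H3K9ac reads (log2) from 0.08 to 0.18. With fewer than 5 listed domains per bin, 416 domains remained at a median distance of 100800 bp to a neighbour, and with fewer than 15 there were 2390 at 27100 bp. The 2 Mb bins gave 28700 bp. That size limit gave a median of 1199 bp and a share with H3K9ac of 82.1%, and bins shifted by 0.5 Mb gave 82.3%, with 1020 of the 1439 domains in common. An H3K9ac FDR of at most 1e-10 left 8.20%, and 21.1% in denser bins. The caller's log2 fold change of at least 1 selected the same 1439 domains. No paired analysis was possible because the replicates of each group were merged before domains were called, and for the same reason no replicate could be left out.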

Other observations

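The limits on read ratio and on size each kept out the 3 domains with the most IgG reads of all those in sparse bins, on chromosome 9 between 33376200 and 33464399, in a sparse bin with 9 listed domains. They had 32605 H3K4me3 reads over 35948 IgG reads, 7164 over 7998 and 6062 over 6608, so that IgG exceeded H3K4me3 in each, and none overlapped a listed H3K9ac domain.

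The same rule applied to the H3K4me3 domains of 2-week-old Otto II Boax hemp seedlings selected 1356 of 16331 domains (8.30%), from a genome in which 273 of 794 occupied bins (34.4%) were sparse. Of these, 11 had no IgG read. The other 1345 had a median size of 1799 bp, a median log2 ratio of 3.55 and a median distance of 31200 bp to the nearest listed domain. The 12560 narrow hemp domains in denser bins with at least 1 IgG read had a median log2 ratio of 3.57 and a distance of 6200 bp. The hemp and tomato tables were made separately, so their read ratios are not on a common scale.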
